A study of Mus musculus with 6 samples.

Results

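Acetylcholine receptors were followed in ribosome-bound RNA of S100a10-expressing cells from the cortex of p11-deficient mice. The set was 8 genes, Chrm1, Chrm2, Chrm3 and Chrm4 for muscarinic receptors and Chrna4, Chrna5, Chrna7 and Chrnb2 for nicotinic subunits. A probe set belonged to the set when the array annotation gave it 1 gene symbol and that symbol was on the list. The list was drawn up by gene name, but with earlier results of these data known. This found 14 probe sets for 7 of the 8 genes, out of 45037 probe sets on the array. Of those, 34945 had 1 symbol and stood for 18193 named genes. No probe set was named for Chrm2, which was not analysed here. A minimum of 50 normalized intensity units in the mean of at least 1 group, after the submitters' advice on low values, left 5 of the 14 probe sets. These stood for 4 genes, Chrm1, Chrna4, Chrna7 and Chrnb2.

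The fluoxetine group (FLX, 3 arrays) came from mice given fluoxetine, a selective serotonin reuptake inhibitor, at 0.167 mg/ml in drinking water with 1% saccharin. The vehicle group (VEH, 3 arrays) came from mice given 1% saccharin without the drug. Treatment lasted 15 to 18 days in both. All 6 arrays share the other features of the model. The mice carry the ES691 bacTRAP transgene, in which an S100a10 bacterial artificial chromosome tags ribosomes for affinity purification, and they lack p11, the protein of S100a10, constitutively. They had been crossed from FVB onto C57BL/6 for 3 to 5 generations. The submitters state that the driver also labels some cells that are not neurons. The question the design puts is what the drug does to translated mRNA in these cells when p11 is absent, and no array with intact p11 was analysed here. The labels call the arrays biological replicates and give no animal numbers, ages or sexes.

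Muscarinic receptors are G protein-coupled receptors. M1 and M3, encoded by Chrm1 and Chrm3, act through Gq, phospholipase C and closure of M-type potassium channels, while M2 and M4, encoded by Chrm2 and Chrm4, act through Gi. Nicotinic receptors are ligand-gated cation channels of 5 subunits. In the cortex the heteromeric type joins alpha4 and beta2 subunits, at times with alpha5, and the homomeric type is made of alpha7. Cortical acetylcholine comes mainly from axons of the basal forebrain, whose somatic mRNA lies outside the tissue collected, and it sets arousal and attention.

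The start regions of 3 of the 4 genes above the minimum are shown here. No start region was available for Chrm1. Chrna7, Chrnb2 and Chrm1 were low in both replicate 3 arrays, and Chrna4 was not low in both. Whether the start regions bear on this was not tested. Each start region shown is the 250 bases before the annotated start, 5′ to 3′ on the gene's strand, from RefSeq on build GRCm38.p6. Capitals mark GC boxes (GGGCGG) and the palindromic E-box (CACGTG), searched on both strands, and GC boxes may overlap each other.
Chrna7, chr7:63212527-63212776, minus strand: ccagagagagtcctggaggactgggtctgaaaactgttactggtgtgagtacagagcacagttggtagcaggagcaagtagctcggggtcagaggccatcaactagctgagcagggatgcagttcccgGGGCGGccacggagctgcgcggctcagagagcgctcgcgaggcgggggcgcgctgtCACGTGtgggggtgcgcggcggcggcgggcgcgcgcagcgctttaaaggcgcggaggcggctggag
Chrnb2, chr3:89764633-89764882, minus strand: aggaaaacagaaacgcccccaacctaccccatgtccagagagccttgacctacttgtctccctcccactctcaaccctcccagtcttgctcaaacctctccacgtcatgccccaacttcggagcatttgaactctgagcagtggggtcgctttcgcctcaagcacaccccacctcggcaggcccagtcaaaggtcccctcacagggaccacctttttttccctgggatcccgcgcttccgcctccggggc
Chrna4, chr2:181039178-181039427, minus strand: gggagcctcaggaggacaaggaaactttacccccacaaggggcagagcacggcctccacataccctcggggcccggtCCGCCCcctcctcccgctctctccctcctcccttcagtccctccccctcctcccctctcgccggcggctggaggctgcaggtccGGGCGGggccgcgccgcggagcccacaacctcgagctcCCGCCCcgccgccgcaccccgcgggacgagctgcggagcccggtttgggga
Chrna4 held 3 GC boxes and Chrna7 held 1 GC box and 1 E-box. Chrnb2 held neither motif in this window. Of 32851 windows of the same length, 32.7% held a GC box and 6.02% held this E-box. The share of G and C was 67.2% for Chrna7, 59.6% for Chrnb2 and 74.4% for Chrna4, against a median of 52.4% over all windows.

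The arrays were similar in overall level, with medians of 38.5 to 41.9 and 21158 to 21682 probe sets at 50 or more. Both replicate 3 arrays differed from the other 4, with which they correlated at 0.867 to 0.916 over tested probe sets, while those 4 correlated with each other at 0.987 to 0.995. Values of single arrays are listed below by rising replicate number. The brightest probe set of S100a10, the deleted gene, read 2222, 2037 and 349 in FLX arrays and 3111, 2248 and 643 in VEH arrays. Its name ends in x_at, so it may match other transcripts, and the other 2 probe sets stayed below 50. Whether the probes fall inside the deletion is not stated, so they check nothing about the genotype. By the brightest probe set of each gene, 12213 of 18193 named genes on the array passed the minimum. All 7 pyramidal neuron markers with a named probe set passed the minimum, but so did all 12 interneuron, all 10 astrocyte and all 10 leptomeningeal markers, so markers of other cell types were present at the same minimum. In such mixed RNA fewer cells of a type and less RNA per cell cannot be told apart.

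Among the muscarinic genes Chrm1 alone reached the minimum of 50, here called detected. Its bright probe set (1439611_at) gave 514, 515 and 282 normalized intensity units in FLX arrays, against 394, 521 and 257 in VEH arrays. The groups overlapped fully, and the low values in both were those of replicate 3. The FLX mean was 437 ± 134 and the VEH mean 390 ± 132 (SD, n = 3 each). The log2 difference, FLX minus VEH, was 0.17 (SE 0.38, limma adjusted p = 0.9998), which is 1.12-fold with a 95% interval of 0.596-fold to 2.12-fold.

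The other probe sets of the muscarinic genes lay near the bottom of the scale. A second Chrm1 probe set gave 7.74, 8.29 and 7.91 in FLX and 7.64, 8.81 and 8.23 in VEH arrays, so the 2 probe sets of this gene disagreed on whether it was detected. Chrm3, the other Gq-coupled receptor of the set, gave 7.51, 7.54 and 8.002 in FLX and 6.90, 7.64 and 9.13 in VEH arrays. Chrm4, the Gi-coupled receptor best known from striatal neurons, gave 8.20, 8.002 and 8.48 in FLX and 7.90, 8.06 and 8.89 in VEH arrays. Of all probe sets 25% had a mean of 9.70 or less, and the Chrm3 and Chrm4 values, which fall in that range, were not tested. Striatal neuron markers were detected in the same RNA in 9 of 10 genes, beside 12213 of 18193 named genes on the array. Drd1 was among the detected striatal markers, at 198, 161 and 215 in FLX and 132, 171 and 178 in VEH arrays. Drd2 was not, at 27.1, 27.9 and 37.5 in FLX and 27.1, 35.1 and 33.6 in VEH arrays.

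Chrna4, the alpha subunit of the main heteromeric nicotinic receptor, had 2 tested probe sets. The brighter (1421203_at) gave 122, 95.4 and 85.7 in FLX arrays, against 72.6, 92.1 and 98.5 in VEH arrays. The highest and the lowest of the 6 arrays were both replicate 1, FLX above VEH, and in replicate 3 the order of the groups was turned. The means were 101 ± 18.8 in FLX and 87.7 ± 13.5 in VEH arrays (SD, n = 3 each), a log2 difference of 0.20 (SE 0.23, limma adjusted p = 0.9998) or 1.15-fold, with a 95% interval of 0.773-fold to 1.71-fold. The other tested probe set (1456354_at) gave 74.3, 67.7 and 67.3 in FLX and 56.6, 71.0 and 80.0 in VEH arrays. Here too FLX was above VEH in replicate 1 and below it in replicate 3, but the highest array was VEH replicate 3 and the difference was 0.03 (SE 0.21). This probe set lay just inside the minimum, with means of 69.8 in FLX and 69.2 in VEH arrays. The third Chrna4 probe set lay well below the minimum of 50, at 29.0, 28.6 and 19.2 in FLX and 29.1, 27.8 and 31.8 in VEH arrays.

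Chrnb2, the beta subunit that pairs with alpha4, gave 525, 447 and 233 in FLX arrays by its bright probe set (1436428_at), against 335, 438 and 197 in VEH arrays. FLX was above VEH within each replicate number, but the groups overlapped. The means were 402 ± 151 in FLX and 323 ± 121 in VEH arrays (SD, n = 3 each), and the log2 difference was 0.31 (SE 0.43, limma adjusted p = 0.9998), or 1.24-fold with a 95% interval of 0.595-fold to 2.57-fold. Its 2 other probe sets stayed between 8.57 and 22.7.

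Chrna7, the subunit of the homomeric receptor with high calcium permeability, had the largest difference of the 4 genes. Its bright probe set (1440681_at) gave 311, 268 and 157 in FLX arrays, against 215, 229 and 78.5 in VEH arrays. FLX was above VEH within each replicate number, and FLX replicate 3 lay below VEH replicates 1 and 2, so the groups overlapped. The means were 245 ± 79.2 in FLX and 174 ± 83.3 in VEH arrays (SD, n = 3 each). The log2 difference was 0.59 (SE 0.50, limma adjusted p = 0.9998), or 1.502-fold with a 95% interval of 0.644-fold to 3.503-fold. With the replicate number as a block the SE was 0.19 and the unadjusted p from limma 0.0181, but the adjusted p was 0.623. Under that fit 7.95% of all tested probe sets had an unadjusted p under 0.05 and 0 passed after adjustment. The second Chrna7 probe set gave 19.6, 19.2 and 23.5 in FLX and 19.3, 19.1 and 21.9 in VEH arrays.

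Chrna5, the accessory subunit known from layer 6 corticothalamic neurons, stayed below the minimum. Its brighter probe set gave 19.3, 16.2 and 22.6 in FLX and 13.7, 17.6 and 22.2 in VEH arrays, with no separation of the groups. The layer 6 markers themselves were detected in 9 of 10 genes, beside 12213 of 18193 named genes on the array. The 9 receptor probe sets left untested ranged from 5.24 to 31.8 over the 6 arrays.

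**Figure D1:**
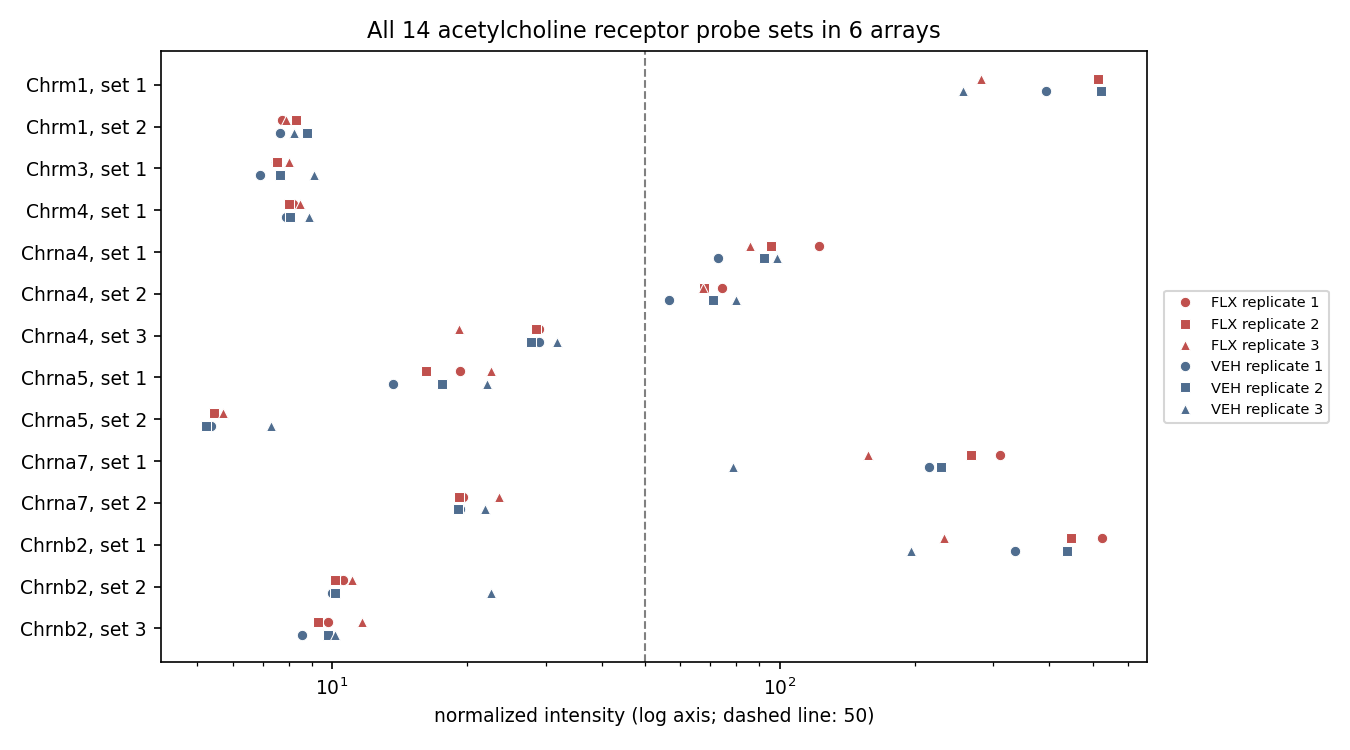
All 14 probe sets of the 7 acetylcholine receptor genes on the array, with normalized intensity on a log axis and 1 point for each of 3 FLX and 3 VEH arrays. Probe sets of each gene are numbered by falling FLX mean. The brightest sets of Chrm1, Chrna7 and Chrnb2 and the first 2 of Chrna4 lie to the right of the dashed line at 50, and the other 9 lie between 5.24 and 31.8.

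The sequence record a probe set was assigned to differed between some bright and dim probe sets. In each of Chrm1, Chrna7 and Chrnb2 the probe set assigned to a RefSeq mRNA was below 50, and the one above 50 was assigned to another GenBank record. Other dim probe sets were also assigned to records outside RefSeq, among them a second one of Chrnb2 (10.15 to 11.1 in FLX and 10.02 to 22.7 in VEH arrays) and the third of Chrna4. Chrm3 and Chrm4 were represented by a RefSeq-based probe set alone. Over the whole array 59.5% of 5897 named RefSeq-based probe sets passed the minimum, and 56.9% of 26236 named probe sets with another record did. These shares do not pair the probe sets of a gene, so they cannot show how usual the picture within these genes is. Where the probes lie along these transcripts was not analysed here. A value below the minimum is given here as that of the probe set.

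**Figure D2:**
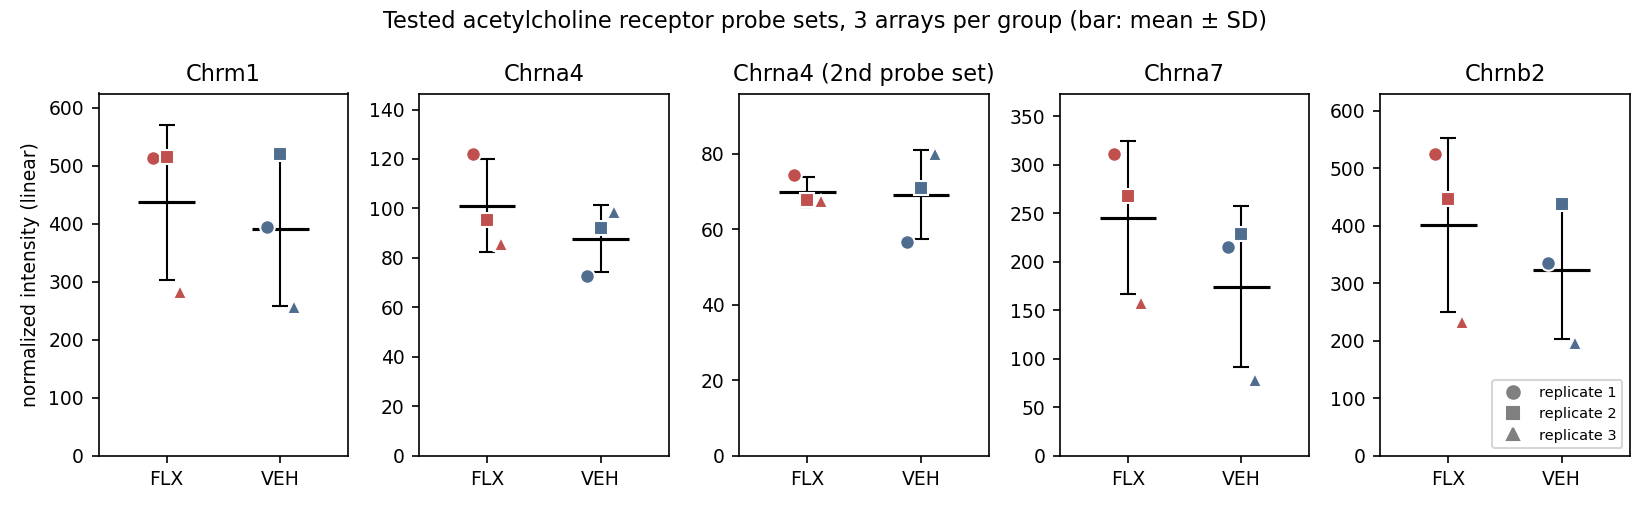
Normalized intensity (linear axes from 0) of the 5 tested acetylcholine receptor probe sets, FLX left of VEH. Symbols give the replicate number, horizontal bars the mean and whiskers the SD of 3 arrays. For Chrm1, Chrna7 and Chrnb2 the replicate 3 array is the lowest of its group, while for Chrna4 it is the lowest in FLX and the highest in VEH.

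Over the whole array 0 of 22200 probe sets (0%) passed limma's adjusted threshold of 0.05 between FLX and VEH, and 83 (0.374%) had an unadjusted p under 0.05. None of the 4 receptor genes (0) was among either. All 4 had a positive difference, as did 57.2% of all tested probe sets. Their median was 0.25, against 0.04 for all tested probe sets. In 0 of the 4 genes did the groups separate without overlap, which 2.55% of tested probe sets did with FLX higher and 1.79% with FLX lower. FLX was higher in 3 of 3 pairs of equal replicate number for 2 of the 4 genes, Chrna7 and Chrnb2, against 19.6% of tested probe sets.

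Taken by replicate number, the difference was largest in replicate 1 for 3 of the 4 genes and in replicate 3 for Chrna7. In replicate 1 the log2 difference was 0.38 for Chrm1, 0.75 for Chrna4, 0.53 for Chrna7 and 0.65 for Chrnb2, while the median of all tested probe sets was 0.01. In replicate 2 the 4 genes were at -0.02, 0.05, 0.23 and 0.03 in the same order, with a median of -0.01 over all tested probe sets. In replicate 3 they were spread widely, at 0.13, -0.20, 1.00 and 0.25, around a general median of 0.14. VEH replicate 1 was the lowest of the 4 arrays numbered 1 and 2 for all 4 genes, a position it held in 28.2% of tested probe sets.

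**Figure D3:**
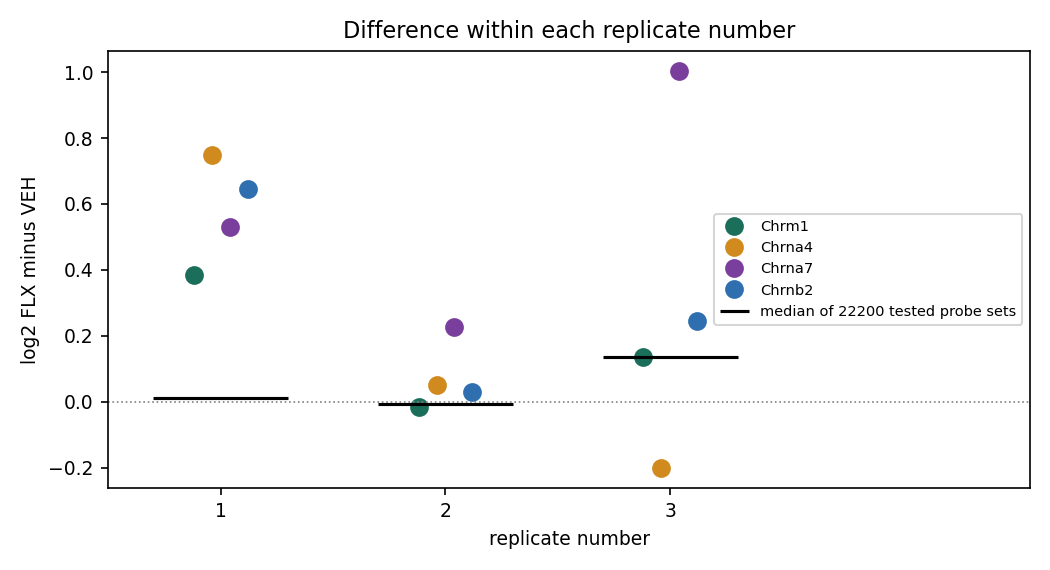
Log2 difference, FLX minus VEH, within each replicate number for the brightest probe set of the 4 tested acetylcholine receptor genes (points), with the median of all 22200 tested probe sets (black bars). The 4 genes lie between 0.38 and 0.75 in replicate 1, between -0.02 and 0.23 in replicate 2, and between -0.20 and 1.00 in replicate 3.

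Which single array was left out decided the sign for 2 genes. Without VEH replicate 3 the difference was -0.105 for Chrm1, -0.0129 for Chrnb2 and 0.09 for Chrna7, whose value in that array was the lowest of the 6. Without FLX replicate 3 the same genes were at 0.46, 0.66 and 0.88. Without FLX replicate 1 they were at 0.02, 0.07 and 0.39, and without FLX replicate 2 Chrm1 was at 0.02 and Chrnb2 at 0.19. Without VEH replicate 2 they were at 0.41, 0.56 and 0.86. Chrna4 was at 0.06 without FLX replicate 1 and 0.07 without VEH replicate 1, and at 0.31 without FLX replicate 3. With replicate 3 of both groups left out the differences were 0.18 for Chrm1, 0.40 for Chrna4, 0.38 for Chrna7 and 0.34 for Chrnb2, and none passed the adjusted threshold.

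The replicate numbers separated 3 of the 4 genes further than the treatments did. Replicate 3 minus the mean of replicates 1 and 2, on the log2 scale, was -0.87 in FLX and -0.82 in VEH arrays for Chrm1. For Chrna7 it was -0.87 in FLX and -1.501 in VEH arrays. For Chrnb2 it was -1.05 in FLX and -0.96 in VEH arrays. For Chrna4 it was -0.33 in FLX and 0.27 in VEH arrays. In 3 of the 4 genes both replicate 3 arrays lay below the other 4, as in 32.4% of tested probe sets, and 34.5% had both above. The leptomeningeal and fibroblast markers moved the same way, with 10 of 10 genes lower in both replicate 3 arrays. The summed level of these markers was 2722 in FLX replicate 3 and 5345 in VEH replicate 3, against 32781 and 55404 in the other FLX arrays and 55909 and 55077 in the other VEH arrays. Oligodendrocyte markers summed to 73757 in FLX replicate 3 and 68970 in VEH replicate 3, against 27589 and 31084 in the other FLX arrays and 27379 and 31582 in the other VEH arrays. Most of this sum was Mbp and Cnp, and of the 9 genes 5 lay above in both replicate 3 arrays, while Mag and Cldn11 lay below in both. Among cortical neuron markers both replicate 3 arrays lay above the other 4 in 7 of 12 interneuron, 4 of 7 pyramidal and 5 of 9 layer 6 genes. They lay below in 1, 1 and 2 of these. Of 9 layer 5 genes, 4 lay above and 4 below. The part of these cell types in the receptor values was not tested. The labels do not say what a replicate number stands for.

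Genes whose values ran most like each receptor over the 6 arrays were sought among 12212 others by Pearson correlation of log2 values, as a description. Chrm1 was most like Cdh2 (N-cadherin, r = 0.9988), Cadm1 (a synaptic adhesion molecule, 0.9988) and Atp1b1 (a sodium pump beta subunit, 0.9984). Chrnb2 was most like Pcdh9 (a protocadherin, r = 0.9984), Slc1a1 (the neuronal glutamate transporter EAAC1, 0.9966) and Lrrc24 (0.9954). Chrna7 was most like St8sia3 (a sialyltransferase, r = 0.9976), Nipa1 (a magnesium transporter, 0.9961) and Pcdhb3 (0.9958). Chrna4 had Mansc1 (0.9469), Cyp4x1 (0.9370) and Tmem25 (0.9242). The low pair of replicate 3 arrays is shared by the first 3 receptors and their like genes, Cdh2 for example at 1605, 1657 and 533 in FLX and 989, 1751 and 411 in VEH arrays. Among the receptors themselves r was 0.98 for Chrm1 with Chrnb2, 0.93 for Chrna7 with Chrnb2 and 0.90 for Chrm1 with Chrna7, while Chrna4 had 0.29 with Chrm1, 0.18 with Chrna7 and 0.38 with its partner Chrnb2. In the 4 arrays of replicates 1 and 2 r ran from 0.62 for Chrm1 with Chrna7 to 0.98 for Chrna4 with Chrnb2. There Chrna4 also had 0.93 with Chrna7 and 0.79 with Chrm1, and Chrnb2 had 0.89 with Chrna7 and 0.89 with Chrm1.

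The other acetylcholine receptor genes stayed below the minimum. Of 13 further subunit and receptor genes, 11 had a named probe set, and all 19 probe sets of these 11 lay between 4.04 and 31.5 in every array. Among them Chrna3 and Chrnb4, the ganglionic pair, had up to 11.8 and 19.9 in FLX and up to 11.6 and 17.8 in VEH arrays by their brightest probe sets. Chrna2, known from a class of layer 5 interneurons, had 4.94 to 5.20 in FLX and 4.87 to 5.50 in VEH arrays, and Chrna6, a subunit of dopamine neurons, 12.04 to 16.3 in FLX and 11.4 to 13.8 in VEH arrays. Chrnb1, a muscle-type subunit, was at 20.7, 30.7 and 8.36 in FLX and 27.9, 31.1 and 14.1 in VEH arrays, low in replicate 3 of both groups. The brightest probe sets of Chrna1, Chrna9, Chrnb3, Chrnd, Chrne and Chrng stayed below 50 as well. Chrm5 and Chrna10 had no named probe set.

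Genes that make, load and take up the transmitter were at the bottom of the scale. Chat, choline acetyltransferase, had 4.43 to 4.83 in FLX and 4.59 to 5.52 in VEH arrays. Slc18a3, the vesicular acetylcholine transporter, had 6.02 to 6.20 in FLX and 5.93 to 6.21 in VEH arrays, and Slc5a7, the choline transporter of cholinergic terminals, 4.68 to 4.80 in FLX and 4.53 to 5.14 in VEH arrays. These 3 defining genes of cholinergic neurons lay in all 6 arrays below 9.70, the level that 25% of probe sets do not exceed on average. Of 8 cholinergic neuron markers with a probe set 4 were tested, and the summed level of the 8 was 558 to 1717 in FLX and 440 to 1123 in VEH arrays. Most of this sum was 1 gene, Lhx8, a transcription factor of such neurons, at 1460, 567 and 312 in FLX and 940, 414 and 290 in VEH arrays. Ecel1, a peptidase-like protein of such neurons, was at 75.1, 117 and 46.5 in FLX and 54.7, 59.0 and 38.4 in VEH arrays, a log2 difference of 0.57 (SE 0.39). Ngfr, the p75 neurotrophin receptor, was at 78.6, 64.2 and 28.2 in FLX and 50.4, 57.7 and 14.7 in VEH arrays, a difference of 0.58 (SE 0.65). It passed the minimum through the FLX group alone, with means of 57.0 in FLX and 40.9 in VEH arrays.

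The 2 enzymes that break acetylcholine down had the largest differences, in opposite directions, among the 4 tested genes of synthesis, transport and breakdown. Ache, acetylcholinesterase, was at 241, 203 and 79.8 in FLX arrays, against 109, 188 and 46.8 in VEH arrays. Like Chrna7 and Chrnb2 it was higher in FLX in 3 of 3 pairs and lowest in replicate 3, and the groups overlapped. Its log2 difference was 0.68 (SE 0.64, limma adjusted p = 0.9998). Bche, butyrylcholinesterase, was at 23.7, 37.6 and 23.0 in FLX, against 131, 233 and 19.0 in VEH arrays. The log2 difference was -2.47 in replicate 1 and -2.63 in replicate 2, and 0.28 in replicate 3. Bche passed the minimum through the VEH group alone, with means of 28.1 ± 8.26 in FLX and 128 ± 107 in VEH arrays (SD, n = 3 each), and its log2 difference was -1.61 (SE 0.92, limma adjusted p = 0.9998). Prima1, the membrane anchor of acetylcholinesterase, had a difference of 0.12 and Slc44a1, a choline transporter, -0.16. Of these 4 tested genes, 0 passed in either direction.

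**Figure D4:**
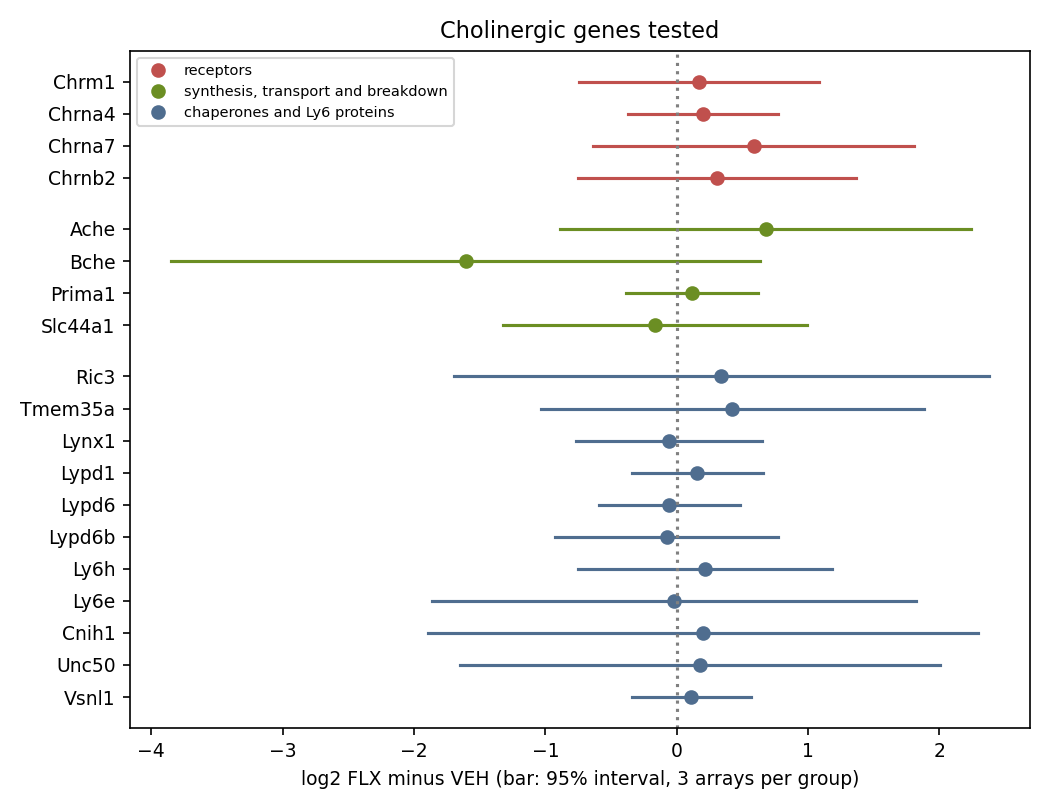
Log2 difference, FLX minus VEH, with its 95% interval from limma (3 arrays per group) for the tested receptor genes, the genes of acetylcholine synthesis, transport and breakdown, and the nicotinic receptor chaperones and Ly6 proteins. Every interval includes 0, and the widest belong to Bche (centre -1.61) and to genes far lower in replicate 3, such as Cnih1.

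Chaperones and Ly6-type modulators of nicotinic receptors were detected in 11 of 12 genes, where 12213 of 18193 named genes on the array were. The counts that follow are for these 11 genes. None (0 in either direction) passed, 7 had a positive difference, as did 57.2% of all tested probe sets, and the median was 0.16. Lypd1, a Ly6 protein that binds nicotinic receptors, was at 832, 1026 and 924 in FLX and 753, 968 and 780 in VEH arrays, with a difference of 0.16 (SE 0.20). Tmem35a (NACHO), a chaperone needed for alpha7 assembly, was at 595, 405 and 238 in FLX and 446, 423 and 126 in VEH arrays. Its values ran low in replicate 3 like those of Chrna7, and its difference was 0.42 (SE 0.60). Ric3, another alpha7 chaperone, was at 228, 184 and 55.2 in FLX and 176, 185 and 35.2 in VEH arrays. In 9 of the 11 genes both replicate 3 arrays lay below the other 4, and in 0 above. Over all tested probe sets 32.4% lay below and 34.5% above.

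Of the signalling genes downstream of the receptors with a named probe set, 11 of 12 on the Gq side and 16 of 17 on the Gi side were detected. On the whole array 12213 of 18193 named genes were. Among the signalling genes 0 passed in either direction on both sides. On the Gq and M-current side 9 of 11 differences were positive, beside 57.2% of all tested probe sets, with a median of 0.13. Plcb1, the phospholipase C of the M1 pathway, was at 9473, 8134 and 13478 in FLX and 6500, 6982 and 10233 in VEH arrays. It was higher in FLX in each pair, and its difference was 0.39 (SE 0.29). Plcb3, a related phospholipase, had -0.42 (SE 0.39). Kcnq3 and Kcnq5, the channel subunits that carry the M-current, had 0.22 and 0.21. On the Gi and GIRK side 9 of 16 differences were positive, beside the same 57.2%, with a median of 0.06. Rgs7, which speeds the turn-off of Gi and Go proteins, was at 5545, 4259 and 5878 in FLX and 3716, 3807 and 4378 in VEH arrays, with a difference of 0.39 (SE 0.21). Kcnj3, a GIRK channel subunit, was at 2783, 2891 and 2151 in FLX and 2325, 2681 and 1412 in VEH arrays, with a difference of 0.33 (SE 0.30). Replicate 3 ran both ways among the signalling genes. Both replicate 3 arrays lay above the other 4 in 7 of 11 Gq-side genes and below in 3, and above in 7 of 16 Gi-side genes and below in 6, beside 34.5% above and 32.4% below over all tested probe sets. Kcnq3, Kcnq5 and Kcnj3 were among those below.

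Markers of cell types that carry these receptors gave 0 genes past the threshold. The median difference was 0.14 over 7 pyramidal, 0.12 over 9 layer 5, 0.19 over 9 layer 6 and 0.24 over 12 interneuron markers, beside 0.25 for the 4 receptors. Interneuron markers summed to 29465 to 50942 in FLX and 24522 to 39273 in VEH arrays, and pyramidal markers to 11407 to 19422 in FLX and 11230 to 20525 in VEH arrays. Rprm, a layer 6 marker, was at 3360, 3100 and 6357 in FLX and 2151, 2599 and 3450 in VEH arrays, a difference of 0.59 (SE 0.35). Reln, an interneuron marker, was at 503, 509 and 636 in FLX and 247, 503.7 and 421 in VEH arrays, with VEH replicate 1 the lowest of the 6, and its difference was 0.55 (SE 0.31). Neurod6 and Tbr1 of the pyramidal list had 0.21 and 0.35, Crym and Npr3 of the layer 5 list 0.43 and -0.52, Sla of layer 6 0.31, Slc32a1 of interneurons 0.50, and Ido1 and Drd1 of the 9 striatal markers (median 0.30) 0.51 and 0.26. Non-neuronal lists ran both ways. Astrocyte markers had a median of 0.27 over 10 genes, with Gfap at 1.496 (SE 0.81) and Aqp4 at 1.12 (SE 0.53). Oligodendrocyte markers had 0.09 over 9 (Mag 0.37 and Ermn 0.43) and microglial markers 0.08 over 9 (Cd68 0.61 and Aif1 0.18). Endothelial markers had -0.00 over 5 (Slco1c1 0.80 and Eng -0.18), pericyte and smooth muscle markers -0.61 over 6 (Acta2 and Pdgfrb both -0.73) and leptomeningeal markers -0.37 over 10 (Foxd1 -0.79 and Igf2 -0.85). The part of any of these in the receptor differences was not tested. The mean log2 gap between 3′ and 5′ control probe sets of Gapdh and Actb, which widens as RNA degrades, was 2.20, 2.09 and 2.08 in FLX arrays and 2.33, 2.18 and 2.19 in VEH arrays, smaller in FLX in 3 of 3 pairs, and its part was not tested either.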

How the data were processed

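Per the labels' protocols, TRAP (translating ribosome affinity purification) RNA entered a 2-cycle amplification at 15 ng per sample, and the biotin-labelled product went onto Affymetrix mouse arrays. The deposited table holds 1 intensity per probe set and array, normalized by the authors with GCRMA per the submitters' processing notes, which give no version or settings. The values run from 1.60 to 76587, which shows that they are not logarithms. GCRMA sets probe sets without signal to low values that carry little information on level. Of 45101 probe sets, 64 controls were left out. The platform annotation gave 34945 of the rest 1 symbol, 932 several and 9160 none.

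The FLX and VEH arrays were fitted with limma 3.58.1 (R 4.3.3), two-sided, on log2 values without a pseudocount and with treatment alone in the model, with Benjamini-Hochberg adjustment over the 22200 probe sets whose mean was 50 or more in at least 1 group. The fit was tried on simulated data with independent noise in each array. That noise held no shift shared by a replicate number, so the trial cannot show how the fit handles such a shift. A gene stands for its probe set with the highest mean. The number of arrays limits precision, and p-values measure only the spread between these arrays. SEs and intervals come from the fit without a replicate block unless the block is named. They therefore include the shift between replicate numbers that both groups shared. Members and lists were chosen with earlier results of these data known, so lists are given by counts and medians with no test. Named are all receptor genes, the transmitter genes Chat, Slc18a3, Slc5a7 and Ache, the 2 members of each other list with the smallest unadjusted p, and the 3 genes most like each tested receptor. Chosen after their values were seen were Ric3, Kcnq3, Kcnq5, Prima1, Slc44a1, Cnih1, Lhx8, Mbp, Cnp, Cldn11 and Drd2. Deviations from group means correlated at 0.704, 0.843 and 0.873 between FLX and VEH arrays of equal replicate number, above the limit of 0.1 for pairing, though replicates 1 and 2 of unlike number reached 0.759 and 0.644. Other filters, a pseudocount of 16, a trend, renewed quantile normalization, the replicate block and arrays left out were tried. Figures were drawn with matplotlib 3.10.9.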

Additional observations from a re-analysis of the deposited data

How the results depend on the processing

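In 14 alternatives the count of probe sets past the threshold between FLX and VEH stayed at 0. The median log2 difference over the 4 tested receptor genes, 0.25 with all arrays, ran from 0.037 (without VEH replicate 3) to 0.56 (without FLX replicate 3) when 1 array was left out, with 0.48 without VEH replicate 2 and 0.06 without FLX replicate 1. It was 0.36 with replicate 3 of both groups left out. Single genes with 1 array left out ran from -0.105 to 0.46 for Chrm1, from 0.06 to 0.31 for Chrna4, from 0.09 to 0.88 for Chrna7 and from -0.0129 to 0.66 for Chrnb2. The negative values of Chrm1 and Chrnb2, both without VEH replicate 3, were the only changes of sign among 15 alternatives for each of these 4 genes. Leaving out 1 replicate 3 array leaves that of the other group unmatched. None of the 4 genes passed the adjusted threshold under any of these alternatives, the lowest adjusted p being 0.555. With the replicate block the median was 0.25 and the count 0, so the block changed no call. It took the SE from 0.38 to 0.17 for Chrm1 and from 0.43 to 0.18 for Chrnb2. For Chrna7 the SE went from 0.50 to 0.19 and for Chrna4 from 0.23 to 0.21. The adjusted p from limma with the block was 0.771, 0.660, 0.623 and 0.785 for these genes in the order named. The fit without replicate 3 and with the block was added after seeing the data. Low signal limits the 9 receptor probe sets below 50, for which no value under an alternative is given.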
